A study of Mus musculus with 12 samples.

Results

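The cytosolic ribosomal protein genes were taken from the gene tables of a mouse RNA-seq study by symbol. A gene was included if its symbol was Rpl or Rps followed by a number, with an optional letter and further digits, or if it was Rpsa, Rplp0, Rplp1, Rplp2 or Fau, which encodes the small-subunit protein RPS30. Symbols marked as numbered pseudogene copies and the S6 kinase genes were not included. The rule found 90 of the 52636 genes in the tables, 53 for the large and 37 for the small subunit. The GENCODE M21 annotation lists 6 of the 90 as pseudogenes, namely Rpl32l, Rpl6l, Rps12l1, Rps3a2, Rps3a3 and Rps4l. Rps12l1 had no count in any library, and the other 89 had counts in all 12 libraries.

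The cells were E14, a mouse embryonic stem cell (ESC) line, either wild type (WT) or with an shRNA knockdown (KD) of the circular RNA circKat6b-e2. Undifferentiated ESCs were maintained with LIF, the MEK inhibitor PD0325901 and the GSK3 inhibitor CHIR99021, and embryoid bodies (EBs), aggregates in which ESCs differentiate, were taken at day 6. Each of the 4 groups (ESC WT, ESC KD, EB WT and EB KD) held 3 libraries, stated by the series to be biological replicates. The labels name no control shRNA for WT and give neither clonality nor pooling for KD, and a difference between KD and WT covers any other difference between those cell populations. RNA was selected by its poly-A tail, so the circular RNA itself was not measured in these libraries.

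A ribosome joins a small subunit, which reads the mRNA, to a large subunit, which forms the peptide bond, and each contains its own set of ribosomal proteins around ribosomal RNA. The genes are transcribed at high and roughly matched levels, and most of their mRNAs start with a cytosine followed by a run of pyrimidines (a 5′ terminal oligopyrimidine, or TOP, motif), through which mTORC1 and LARP1 regulate translation. ESCs keep a low rate of protein synthesis while holding abundant ribosomal protein mRNA, and several members have paralogues that are used mainly in the germ line or in muscle, such as Rpl10l, Rpl39l and Rpl3l.

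Rpl39 encodes a small protein that lines the peptide exit tunnel, and Rpl39l encodes its close paralogue. Their coding sequences are shown because the levels of the 2 genes separated most between the stages. In GENCODE M21 (build GRCm38) the Rpl39 coding sequence lies on chromosome X, minus strand, in 3 segments between 37082704 and 37085127, and that of Rpl39l lies on chromosome 16, plus strand, in 1 segment from 10174310 to 10174462. These coordinates leave out the stop codon, which the sequences include. Capitals mark the 23 of 156 positions at which the 2 sequences differ, and 85.3% of positions were identical.
Rpl39: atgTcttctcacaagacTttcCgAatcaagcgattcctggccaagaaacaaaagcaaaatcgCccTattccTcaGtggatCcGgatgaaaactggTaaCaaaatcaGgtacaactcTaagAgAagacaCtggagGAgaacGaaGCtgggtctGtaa
Rpl39l: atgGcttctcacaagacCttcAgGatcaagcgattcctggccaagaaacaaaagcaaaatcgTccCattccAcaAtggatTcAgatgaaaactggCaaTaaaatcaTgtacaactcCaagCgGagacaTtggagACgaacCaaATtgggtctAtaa

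Start sites were examined because most members moved together. RefSeq promoters (GRCm38.p6) were found for 65 of the 90 members. Windows of 30 bases around the annotated start (15 bases on each side) are shown for members described later: Rpl38 and Rpl13a had the lowest values in EB KD, Rps6 had a KD difference that differed between the stages, and Rpl39, Rpl39l and Rpl10l belong to the paralogue contrasts. Capitals mark a run of at least 7 pyrimidines that starts with C within 10 bases of the start.
Rpl38 (chr11:114668565-114668594, plus strand): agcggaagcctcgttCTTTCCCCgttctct
Rpl13a (chr7:45128731-45128760, minus strand): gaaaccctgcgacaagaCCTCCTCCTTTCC
Rps6 (chr4:86857353-86857382, minus strand): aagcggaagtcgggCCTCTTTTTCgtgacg
Rpl39 (chrX:37085208-37085237, minus strand): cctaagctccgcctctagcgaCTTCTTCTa
Rpl39l (chr16:10170213-10170242, plus strand): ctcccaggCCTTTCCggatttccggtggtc
Rpl10l (chr12:66284387-66284416, minus strand): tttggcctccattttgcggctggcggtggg

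Such a run was present at 32 of the 65 matched members (49.2%) and at 14.1% of 26960 other genes with a promoter in the same table. The letters CCGGAAG, searched on both strands of the 300-base promoter, were present at 26 members (40.0%) and at 9.86% of other genes. The letters AAGATGGC, searched in the same way, were present at 7 members (10.8%) and at 3.17% of other genes. The first motif ends and the second begins with the letters AAG, so their matches can overlap. A match is a description of the sequence and does not show a bound site, and an annotated start can differ from the start used in these cells.

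Total counts per library ranged from 25377626 to 37770596. The labelled stages were checked with marker genes. Summed levels (CPM, counts scaled to a common library size with TMM factors) of 10 pluripotency genes were 9039 to 11075 in ESCs, 219 to 230 in EB WT and 454 to 508 in EB KD, and those of 12 genes of differentiated lineages were 24.8 to 31.8 in ESCs, 2605 to 2671 in EB WT and 2088 to 2182 in EB KD. Of 8 mesenchymal and fibroblast genes, the sum was 24.5 to 38.2 in ESCs, 526 to 534 in EB WT and 1610 to 1640 in EB KD, with Col3a1, Postn, Dcn and Lum at 0 in every ESC KD library and Postn at 0 in every ESC WT library. The sum of 6 erythroid genes was at or below 1.23 CPM in every library. In EB KD against EB WT, 9 of 10 pluripotency genes rose and 0 fell (edgeR, as below). Of 8 mesenchymal genes 6 rose and 1 fell, and of 12 genes of differentiated lineages 5 rose and 5 fell. Among all genes 28.0% were called higher and 27.7% lower. The summed CPM of 13 mitochondrially encoded mRNAs was 15067 to 17048 in ESC WT, 17035 to 18257 in ESC KD, 12029 to 12458 in EB WT and 13038 to 13996 in EB KD, so it was higher in every EB KD library than in any EB WT library. That of 4 nuclear long noncoding RNAs was 257 to 288 in ESCs and 343 to 532 in EBs. The parts of cell composition and of these RNA classes in the ribosomal protein values were not tested. In such bulk samples, fewer cells of a type and less RNA per cell cannot be told apart.

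The members together took 18.4%, 23.2% and 18.04% of all counts in the 3 ESC WT libraries, and 17.4%, 17.3% and 16.7% in ESC KD. In EBs the share was 6.68%, 6.98% and 6.97% in WT and 4.98%, 5.16% and 5.22% in KD. ESC WT replicate 2 was the highest of all libraries, and every EB library lay below every ESC library. The group means were 19.9% ± 2.90 (SD, n = 3) in ESC WT, 17.1% ± 0.375 in ESC KD, 6.87% ± 0.170 in EB WT and 5.12% ± 0.125 in EB KD. The share in EB KD was below that in EB WT by more than the spread between libraries. The difference between the ESC groups was within the SD of ESC WT with all libraries. Without ESC WT replicate 2 the ESC WT mean was 18.2% ± 0.257 (SD, n = 2), and the difference from ESC KD was then larger than the SD of either group. The ESC groups did not overlap in either case.

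The balance of the subunits moved little beside these shares. Counts on large-subunit members divided by counts on small-subunit members gave 1.21 ± 0.0125 (SD, n = 3) in ESC WT, 1.21 ± 0.0163 in ESC KD, 1.17 ± 0.00603 in EB WT and 1.17 ± 0.0126 in EB KD. The 12 libraries ranged from 1.16 to 1.23. By this ratio of sums the ESC libraries all lay above the EB libraries, and WT and KD overlapped at both stages. The stages overlapped when the median log2 levels of large and small members without pseudogenes were subtracted instead. ESC WT replicate 3 was then at -0.43 and EB KD replicate 1 at -0.36. The ESC WT ratio was 1.21 ± 0.00558 without ESC WT replicate 2. In ESC WT replicate 2 the ratio was 1.23, so its raised share was seen for both subunits, at 12.8% of counts for the large and 10.4% for the small subunit.

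**Figure D1:**
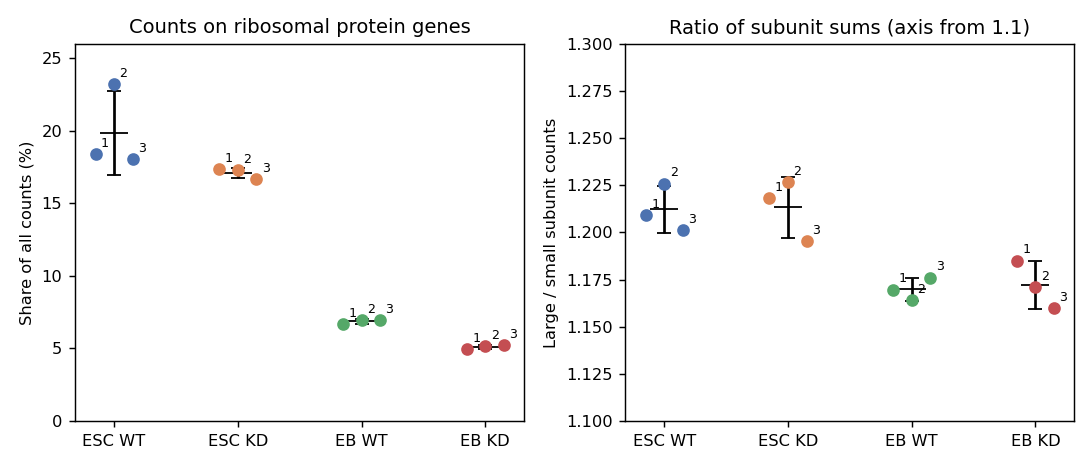
Share of all counts on the 90 ribosomal protein genes (left, percent) and counts on large-subunit genes divided by counts on small-subunit genes (right; the axis starts at 1.1), with 1 point per library numbered by replicate, and the mean and SD of the 3 libraries in black. The EB shares lie between 4.98% and 6.98%, and ESC WT replicate 2 stands at 23.2%.

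ESC WT replicate 2 stood apart from the other ESC WT libraries across the set. Of the members, 79 of 89 tested were higher in it than in both other ESC WT libraries, against 6220 of 16081 genes tested, and the median member was 0.50 (log2) above their mean. Fau was at 2711, 4231 and 2661 CPM in ESC WT replicates 1 to 3, and Rpl38, a large-subunit protein linked to translation of Hox mRNAs, was at 1449, 2883 and 1344 CPM. Exceptions included Rpl10l, at 217, 176 and 196 CPM, and Rpl7a, at 1567, 1414 and 1451 CPM, which were lowest in that library. The shares, the KD comparison in ESCs, the stage medians, the interaction, the ESC length medians and the paralogue ratios are therefore given with and without it. The RPKM order, the pathway lists between stages and the list calls in ESC KD are given with it only.

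**Figure D2:**
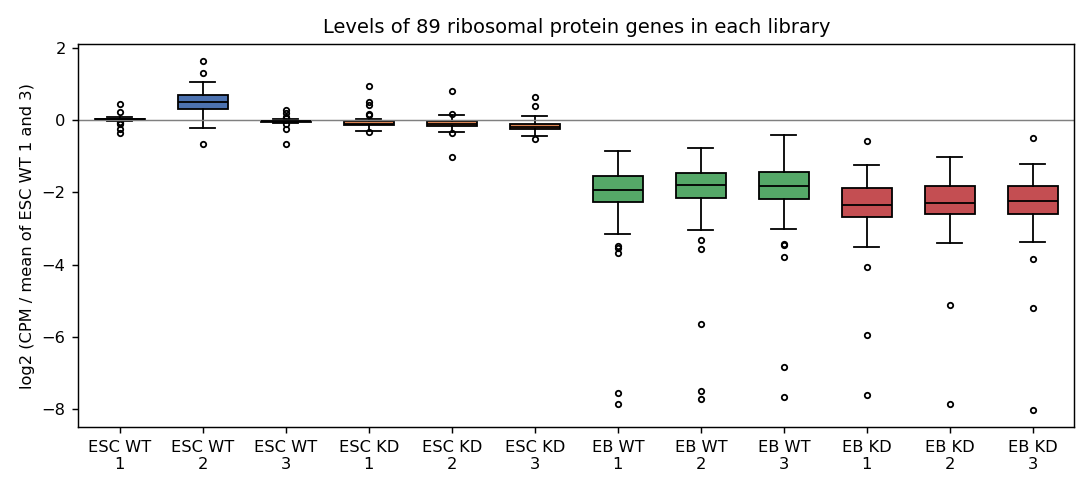
Levels of 89 ribosomal protein genes in each of the 12 libraries as log2 of CPM divided by the mean of ESC WT replicates 1 and 3; boxes show the median and quartiles, whiskers reach 1.5 times the interquartile range, and points are genes beyond them. The box of ESC WT replicate 2 lies above 0, those of the ESC KD libraries lie at or just below it, and all EB boxes lie far below it.

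Levels per exonic length spanned a wide range. This length covers all annotated exons of a gene and can exceed that of the principal transcript, unequally between members. It was 499 bases for Rplp1 and 1168 for Rpl41, whose principal transcripts have 499 and 437 bases. The order given here can therefore depend on the length used. On the scale of RPKM (CPM divided by the exonic length in kilobases), Rplp1, an acidic stalk protein, was highest in ESC WT with 21740 ± 7784 (SD, n = 3). It was followed by Rpl36 with 9308 ± 3667, Rpl8 with 8712 ± 1687, Rps15 with 8120 ± 2548 and Rpl41 with 5726 ± 1899. From Rpl36 to Rpl41, neighbours in this order differed by less than the larger of their SDs. In EB WT the order opened with Rplp1 at 2059 ± 97.6, Rpl8 at 1882 ± 64.7, Rpl36 at 1215 ± 89.4 and Rps15 at 1208 ± 53.6, and the last 2 of these lay within each other's SD. At the low end of ESC WT stood Rpl24 at 1.53 ± 0.257, Rpl3l at 2.06 ± 0.741, Rpl32l at 4.38 ± 0.943, Rpl29 at 12.96 ± 3.18 and Rpl34 at 20.1 ± 0.544. Rpl24, Rpl29 and Rpl34 have near-identical copies elsewhere in the genome, and no source used here says how reads that align to several places were treated, so the levels of these and similar members are uncertain.

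The comparison of KD with WT in ESCs asked whether the knockdown altered ribosomal protein mRNA before differentiation. No member passed the threshold, an edgeR quasi-likelihood test with Benjamini-Hochberg adjusted p under 0.05 over 16081 genes, in either direction (0 of 89 tested). Among all genes tested, 0.168% were called higher and 0.435% lower. At an unadjusted p under 0.05 there were 40 of 89 members, and 3447 of all 16081 genes tested. The median member log2 fold change was -0.30, against 0.01 for all genes. A negative value was found for 78 of 89 members and for 7757 of 16081 genes. In 59 of 89 members all KD libraries lay below all WT libraries, which was the case for 16.0% of all genes.

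The uncalled members with the lowest log2 fold changes in ESCs were Rpl30 (-0.78 ± 0.46, SE), Rpl21 (-0.72 ± 0.26), Rpl38 (-0.70 ± 0.32), Rpl36 (-0.66 ± 0.25) and Rps27a (-0.61 ± 0.28). Without ESC WT replicate 2 these values were -0.21 for Rpl30, -0.34 for Rpl21, -0.26 for Rpl38, -0.29 for Rpl36 and -0.38 for Rps27a, and Rpl21 (adjusted p 2.03e-07) and Rpl36 (adjusted p 0.000891) were then called. The members with the highest values with all libraries were Rpl32l at 0.32 ± 0.34, Rpl24 at 0.29 ± 0.38, Rpl7a at 0.14 ± 0.09, Rpl10l at 0.10 ± 0.08 and Rpl34 at 0.09 ± 0.09. Rpl36 stood at 2911, 5471 and 2899 CPM in ESC WT and at 2498, 2434 and 2151 CPM in ESC KD. Replicate 2 was the highest WT library, and all KD libraries were below all WT libraries. Rps27a, which encodes a ubiquitin fused to a small-subunit protein, stood at 1597, 2630 and 1831 CPM in WT and at 1577, 850 and 1508 CPM in KD. Its groups did not overlap, but its libraries of the same group differed up to 1.86-fold in KD.

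Without ESC WT replicate 2 the count changed from 0 to 41 lower members of 89, with 0 higher, while 5.60% of all genes were called lower and 3.75% higher. The median moved toward 0, to -0.12. Among them, Rpsa, a small-subunit protein that was first described as a laminin receptor, was called with a log2 fold change of -0.28 ± 0.03 (SE). Its CPM was 9565 and 8927 in the 2 remaining WT libraries and 7456, 7759 and 7486 in KD, and the groups did not overlap. Rps15 reached -0.32 ± 0.04, Rpl41 -0.27 ± 0.04 and the stalk proteins Rplp1 and Rplp0 -0.25 ± 0.03 and -0.22 ± 0.04. With all 6 ESC libraries, DESeq2 called 9 members lower (4.35% of all genes), a fit without a filter on low counts 32 (4.14%), and the fit of all 12 libraries 12 (5.43%), with 2.06%, 2.65% and 5.11% of all genes called higher. Scaling by library size alone called 0 members, beside 0.168% of all genes lower and 0.0560% higher. The median was negative in each setting run, and its size without ESC WT replicate 2 was -0.12 against -0.30 with it. That scaling moved the median of all genes from 0.01 to 0.12, and relative to that median the members were at -0.30, against -0.31 with TMM.

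The same comparison in EBs gave calls for most of the set. Of 88 members tested, 76 fell and 3 rose in EB KD by the edgeR quasi-likelihood test with Benjamini-Hochberg adjustment, while 27.7% of 17355 genes were called lower and 28.0% higher. The median member log2 fold change was -0.44, against 0.00 for all genes. In 75 members all KD libraries lay below all WT libraries (26.1% of all genes) and in 3 all lay above (35.0% of all genes). The large subunit gave 42 lower and 2 higher of 52, with a median of -0.44, and the small subunit 34 lower and 1 higher of 36, with a median of -0.44. The counts ranged from 72 to 76 lower members when each EB library was left out in turn, against 24.6% to 25.5% of all genes.

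Rpl38 had the lowest value in EB KD. It stood at 260, 320 and 289 CPM in EB WT and at 126, 144 and 150 CPM in EB KD, a log2 fold change of -1.11 ± 0.11 (SE, edgeR, adjusted p 0.000995). All KD libraries were far below the lowest WT library, and the groups did not overlap. Rpl13a, known for binding to mRNAs of inflammatory genes when released from the ribosome, stood at 67.0, 64.0 and 68.1 CPM in WT and at 33.6, 36.2 and 41.1 CPM in KD (-0.90 ± 0.06, adjusted p 9.51e-14). Its KD libraries were again all below its WT libraries.

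Rps21, a small-subunit protein, stood at 320, 352 and 357 CPM in WT and at 182, 196 and 221 CPM in KD, with no overlap (-0.84 ± 0.08, adjusted p 0.000176). Rpl39 stood at 237, 282 and 253 CPM in WT and at 139, 157 and 156 CPM in KD, also with no overlap (-0.83 ± 0.07, adjusted p 4.22e-05). Rps27a had a log2 fold change of -0.79 ± 0.37 and was not called (adjusted p 0.147). Its WT libraries, at 582, 614 and 327 CPM, overlapped with its KD libraries, at 385, 216 and 318 CPM. DESeq2 called it at an adjusted p of 0.046.

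By role, all 4 stalk genes fell in EB KD, beside 76 of 88 members in all, so the counts of the role lists that follow are close to what the whole set shows. The stalk recruits the translation factors that hydrolyse GTP, and Rplp2 had the lowest value of the 4, at 632, 658 and 696 CPM in WT against 454, 498 and 479 CPM in KD (-0.53 ± 0.03). Rpl12 was at -0.44 ± 0.03, Rplp1 at -0.42 ± 0.04 and Rplp0, the base of the stalk, at -0.17 ± 0.03. The 4 genes of proteins that bind the 5S ribosomal RNA or the p53 ligase MDM2 also fell: Rpl23 at -0.44 ± 0.07, Rpl5 at -0.43 ± 0.03, Rps7 at -0.36 ± 0.03 and Rpl11 at -0.33 ± 0.04.

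All 9 listed genes that are mutated in Diamond-Blackfan anaemia, an inherited failure of red cell production, fell in EB KD. Rps19, the most often mutated of them, stood at 1022, 1019 and 1060 CPM in WT and at 628, 708 and 737 CPM in KD, with no overlap (-0.64 ± 0.05). Of the ubiquitin fusion genes, Fau fell (-0.39 ± 0.08) and Rps27a was not called. Of the exit tunnel genes, Rpl4 (-0.44 ± 0.02) and Rpl39 fell, while Rpl17 (0.07 ± 0.32) and Rpl39l (-0.14 ± 0.38) were not called. The value of Rpl17 changed sign without EB WT replicate 1 (-0.13) and without EB KD replicate 1 (-0.12), and its CPM differed up to 4.86-fold between ESC WT libraries. Rps6, the target of S6 kinase, was at -0.49 ± 0.03, Rpsa at -0.37 ± 0.02 and Rps4x at -0.34 ± 0.03.

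Rpl10l, Rps4l and Rpl21 were the 3 members that rose in EB KD. Rpl10l, a retrogene copy of Rpl10 used in spermatogenesis, stood at 1.09, 1.13 and 1.81 CPM in EB WT (42, 42 and 75 counts) and at 3.34, 5.97 and 5.55 CPM in EB KD (124, 208 and 208 counts). Every KD library lay above every WT library, and the log2 fold change was 1.81 ± 0.25 (adjusted p 3.77e-07). Rps4l stood at 142, 138 and 150 CPM in WT and at 177, 180 and 181 CPM in KD, with no overlap (0.26 ± 0.04, adjusted p 3.13e-07). Rpl21 was at 101, 114 and 105 CPM in WT and at 116, 123 and 120 CPM in KD (0.10 ± 0.04, adjusted p 0.0436). The libraries of Rpl21 did not overlap, but its call was lost with DESeq2 (adjusted p 0.061), with TMM factors from other genes (0.067), when all 12 libraries were fitted together (0.619), and without EB WT replicate 1 (0.275), EB WT replicate 3 (0.163), EB KD replicate 2 (0.175) or EB KD replicate 3 (0.067).

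**Figure D3:**
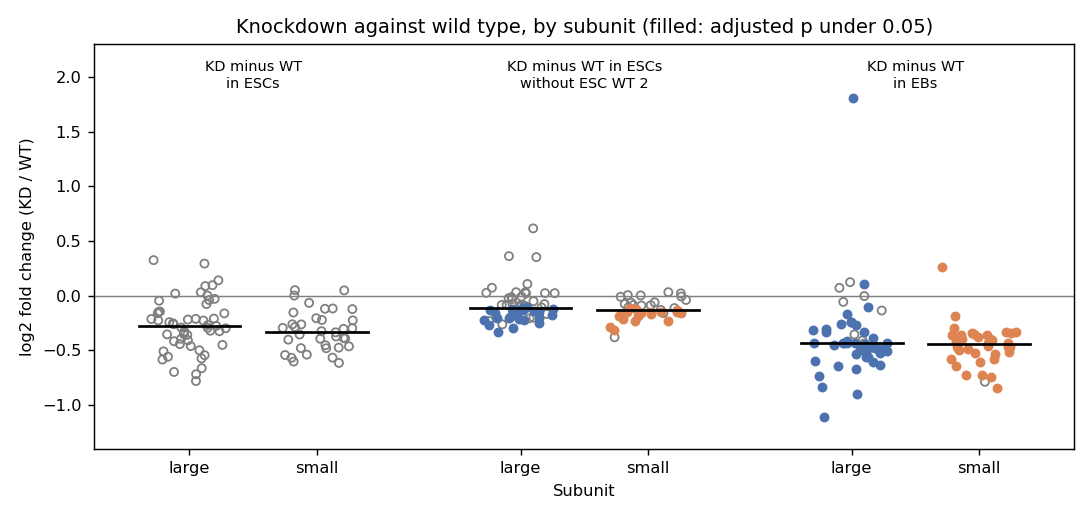
Log2 fold change of each ribosomal protein gene, KD over WT, in ESCs with all libraries, in ESCs without ESC WT replicate 2, and in EBs, split by subunit; filled points passed an adjusted p of 0.05 and the black line is the median. No point is filled in the comparison with all ESC libraries, 41 are filled without ESC WT replicate 2, and 79 are filled in EBs.

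Genes around the ribosomal protein set were read in EB KD from lists of pathway genes. Among all genes 27.7% fell and 28.0% rose, and the median was 0.00. Of 18 mRNAs of translation factors and other TOP mRNAs, 16 fell and 0 rose, with a median of -0.29. Eef2, the translocase of elongation, fell by 0.65 ± 0.02 on the log2 scale. Eif3l at 0.06 ± 0.03 and Npm1 at -0.04 ± 0.03 were not called. Of 48 biogenesis factors, which build ribosomes, 16 rose and 15 fell (median -0.03), shares near those of all genes, with Rrs1 at 0.49 ± 0.05, Imp4 at 0.48 ± 0.05, Lyar at -0.51 ± 0.05 and Utp14a at -0.58 ± 0.07. Of 12 Pol I genes 3 rose and 3 fell (median -0.05), also near those shares, including Ubtf, the factor that opens ribosomal DNA, at 0.76 ± 0.04. Of 77 mitochondrial ribosomal protein genes 2 rose and 35 fell (median -0.12).

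Of 15 genes of mTORC1 and LARP1 control, 6 rose and 4 fell in EB KD (median 0.08), near the shares of all genes, among them Tsc2, an inhibitor of mTORC1, at 0.62 ± 0.04, and Ddit4, a stress-induced inhibitor, at -1.48 ± 0.05. Of 9 MYC network genes 7 rose and 1 fell (median 0.51), with Myc at 1.06 ± 0.08 and Mycn at 0.60 ± 0.04. Myc was also the only gene called in ESC KD among the lists of TOP mRNAs, biogenesis, Pol I, mTORC1 and MYC genes (0.84 ± 0.16, edgeR adjusted p 0.044). That fit held all ESC libraries, and the lists are not given without ESC WT replicate 2. Protein levels and translation were not measured.

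Between stages the members fell together. In WT, 88 of 89 members were lower in EBs than in ESCs and 0 were higher, while 37.3% of 18975 genes were called lower and 42.5% higher. In KD, 89 of 89 were lower, against 37.3% of all genes lower and 42.5% higher. All 89 had every EB library below every ESC library in both cell populations, against 37.8% of all genes in WT and 38.8% in KD (43.9% and 44.8% had every EB library above). The median log2 fold change was -2.04 in WT and -2.15 in KD, against 0.17 and 0.15 for all genes. The median of the members was -1.90 in WT and -2.21 in KD without ESC WT replicate 2, with 88 and 89 lower. Of all genes, 36.7% were then lower and 40.5% higher in WT, and 38.3% and 42.2% in KD. Rpl3l, with 2 to 12 counts per EB library, passed the filter only through the ESC libraries and so had to differ. Over the 88 members that also passed the filter in EBs, 87 were lower in WT and 88 in KD. Scaling by library size alone moved the median of all genes to 0.70 in WT and 0.52 in KD, and that of the members to -1.49 and -1.78, with 87 and 88 members lower (27.8% and 30.0% of all genes lower, 52.0% and 48.8% higher). Relative to the median of all genes, the members were at -2.21 in WT and -2.30 in KD with TMM, and at -2.196 and -2.30 with library size alone.

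Rpl24 was the member not called in WT. It stood at 1.27, 1.71 and 1.75 CPM in ESC WT and at 0.703, 0.890 and 1.14 CPM in EB WT, which is 40 to 44 and 27 to 47 counts (-0.79 ± 0.37, adjusted p 0.0617). It was called by DESeq2 (adjusted p 0.023), and by edgeR without ESC WT replicate 1 (0.044) or ESC KD replicate 2 (0.047). In KD it was called (-1.02 ± 0.37, adjusted p 0.0193), but not with library size alone (0.110), with no filter on low counts (0.077), or without ESC KD replicate 3 (0.057) or EB KD replicate 2 (0.076). The other small falls in WT were those of Rpl4 (-0.92 ± 0.05), Rpl15 (-1.01 ± 0.05), Rpl23a (-1.03 ± 0.05) and Rpl22l1 (-1.09 ± 0.07). Subunits gave similar medians in WT, at -2.14 for the large and -2.01 for the small subunit.

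The pathway lists were also read between stages in WT, where 37.3% of all genes fell and 42.5% rose and the median of all genes was 0.17. Of 48 biogenesis factors 39 fell and 2 rose (median -1.37), of 12 Pol I genes 9 fell and 1 rose (median -0.83), and of 18 TOP mRNAs 12 fell and 4 rose (median -0.70). Eef1a1, the elongation factor that delivers aminoacyl-tRNA, rose by 0.53 ± 0.09. Of 77 mitochondrial ribosomal protein genes 75 fell and 0 rose, with a median of -1.71. The difference between these lists and the members was not tested.

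Transcript length was examined, after the values had been seen, because most ribosomal protein mRNAs are short. In the stage comparison in WT, members under 600 bases had a median of -2.27 (32 genes) and 276 other protein-coding genes of that length -2.13. Other genes of 600 to below 1000 bases had -1.46, against -1.85 for 32 members, and other genes of 4000 bases or more had 1.26. In ESC KD, the members under 600 bases had -0.38 and 246 other genes -0.35, while other genes of 4000 bases or more had 0.11. Against the mean of ESC WT replicates 1 and 3 only, these 3 medians were -0.15, -0.17 and 0.06 (differences of mean log2 CPM). The medians of the shortest members and of other genes of that length were close in both comparisons. In EB KD they were further apart: members under 600 bases had -0.51 and 209 other genes -0.12. For 600 to below 1000 bases the EB KD values were -0.42 and -0.12. In ESC KD that class was close, at -0.27 for members and -0.23 for other genes. Against ESC WT replicates 1 and 3 only, its ESC KD values were -0.10 and -0.14. For 1000 to below 2000 bases, members and other genes were apart in each comparison. They had -2.04 and -0.67 between stages in WT, -0.28 and -0.07 in ESC KD, and -0.43 and -0.05 in EB KD. Against ESC WT replicates 1 and 3 only, the ESC KD values of that class were -0.12 and -0.05.

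ESC WT replicate 2, set against the mean of the other ESC WT libraries, showed a gradient in the opposite direction, with shorter genes higher. Its median difference was 0.63 for members under 600 bases and 0.43 for other genes of that length, and -0.11 for other genes of 4000 bases or more. The part of transcript length in the results was not tested.

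**Figure D4:**
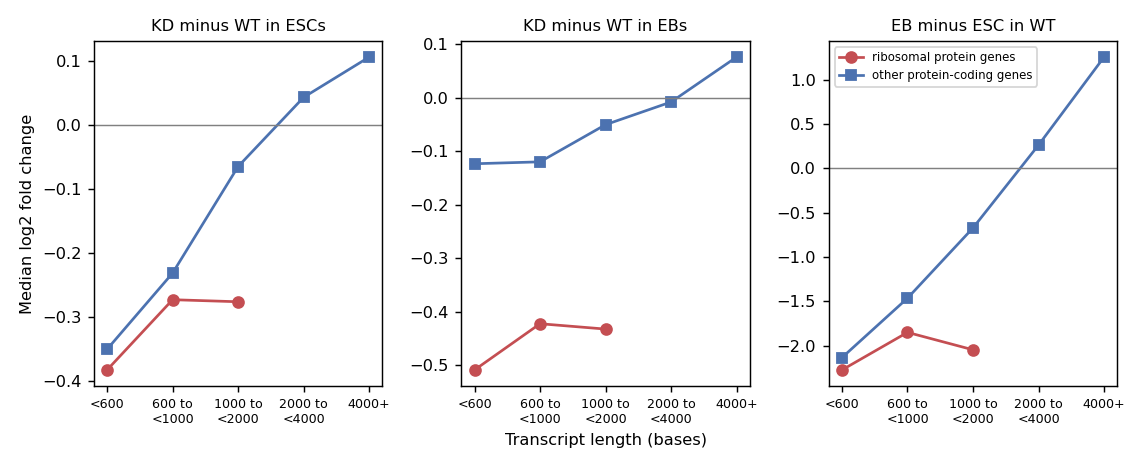
Median log2 fold change by length of the principal transcript for ribosomal protein genes (circles, classes with at least 10 members) and other protein-coding genes (squares) in ESC KD, EB KD and the stage comparison in WT; each panel has its own vertical scale. The 2 lines lie close together for the shortest genes in ESC KD (-0.38 and -0.35) and in the stage comparison (-2.27 and -2.13) and apart in EB KD (-0.51 and -0.12). At 1000 to below 2000 bases they lie apart in ESC KD (-0.28 and -0.07) and in the stage comparison (-2.04 and -0.67) as well.

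The paralogue contrasts asked whether members with a close copy changed their balance, using the ratio of counts of 2 genes in the same library, which does not depend on scaling. Rpl39l had 6442, 5679 and 4786 counts in ESC WT and 4410, 5061 and 5413 in ESC KD, but 32, 34 and 40 in EB WT and 37, 29 and 28 in EB KD. On the CPM scale it stood at 200, 243 and 191 in ESC WT, at 196, 202 and 199 in ESC KD, at 0.833, 0.917 and 0.966 in EB WT and at 0.996, 0.832 and 0.747 in EB KD. The stages were far apart, and WT and KD overlapped within each stage. The log2 fold change between stages was -7.86 ± 0.12 in WT (adjusted p 6.75e-17) and -7.85 ± 0.12 in KD, the lowest of all members in both.

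Rpl39 fell far less between stages, by 1.37 ± 0.12 on the log2 scale in WT and 1.87 ± 0.13 in KD. There were 32.1 ± 2.46 (SD, n = 3) Rpl39l counts per 100 Rpl39 counts in ESC WT and 36.5 ± 3.20 in ESC KD, against 0.353 ± 0.0284 in EB WT and 0.575 ± 0.124 in EB KD. Per exonic length the ratio in ESC WT was 55.4 ± 4.24 per 100. That length covers all annotated exons, 1434 bases for Rpl39 and 831 for Rpl39l. Their principal transcripts are closer in length, at 612 and 550 bases, so this value depends on the length used. The log2 ratio thus differed by -6.49 ± 0.09 (SE) between stages in WT and by -5.98 ± 0.19 in KD, and no libraries overlapped. In EBs the ratio was higher in KD than in WT by 0.69 ± 0.18, again with no overlap. With 3 libraries against 3, the exact 2-sided permutation test cannot go below p = 0.1, which each of these reached (0.164 when adjusted over 36 ratio tests).

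In ESCs the Rpl39l ratio was higher in KD by 0.18 ± 0.10, with no overlap, and by 0.12 without ESC WT replicate 2, where the stage difference in WT was -6.55. Rpl10l also had a far lower ratio in EBs than in ESCs. Its CPM was 217, 176 and 196 in ESC WT and 206, 213 and 207 in ESC KD, and the EB values were given above. The log2 fold change between stages was -7.17 ± 0.21 in WT and -5.40 ± 0.18 in KD. Rpl10, a late-joining large-subunit protein, stood at 2770, 3162 and 2721 CPM in ESC WT and at 1016, 1035 and 1024 CPM in EB WT. Rpl10l counts per 100 Rpl10 counts were 6.86 ± 1.17 in ESC WT, 8.13 ± 0.0578 in ESC KD, 0.131 ± 0.0395 in EB WT and 0.546 ± 0.149 in EB KD. The ratio was higher in KD than in WT by 0.26 ± 0.15 on the log2 scale in ESCs and by 2.04 ± 0.34 in EBs, with no overlap at either stage (exact permutation p = 0.1, adjusted 0.164, for each). Without ESC WT replicate 2 the ESC difference was 0.12 and the stage difference in WT was -5.86, against -5.72 ± 0.28 with it.

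Rps4l, annotated as a transcribed pseudogene, and Rps4x, the X-linked small-subunit gene, behaved in a like manner with a smaller step. Rps4l stood at 1620, 2055 and 1671 CPM in ESC WT and at 1477, 1493 and 1461 CPM in ESC KD, against the EB levels given above. Rps4l counts per 100 Rps4x counts were 51.2 ± 2.38 in ESC WT, 49.1 ± 0.472 in ESC KD, 12.8 ± 0.551 in EB WT and 19.3 ± 0.887 in EB KD. The ratio was higher in EB KD than in EB WT by 0.60 ± 0.05 on the log2 scale, with no overlap (exact permutation p = 0.1). How reads shared by Rps4l, Rps4x and similar pairs were assigned is not known, so the ratios of near-identical genes are uncertain.

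Of the other pairs, Rpl22l1, Rps27l and Rpl7l1 had smaller differences between stages in WT, and Rpl3l was lower in EBs. Rpl22l1 counts per 100 Rpl22 counts were 7.76 ± 0.758 in ESC WT and 11.95 ± 0.346 in EB WT, and 8.41 ± 0.378 and 12.9 ± 0.547 in KD. Rps27l, a p53 target, had 45.4 ± 8.65 counts per 100 Rps27 counts in ESC WT and 57.8 ± 7.95 in EB WT. Rpl7l1, a relative of Rpl7, had 15.3 ± 0.553 counts per 100 Rpl7 counts in ESC WT and 13.5 ± 0.125 in EB WT. Rpl3l, the muscle paralogue of Rpl3, had 52 to 112 counts per ESC library and 2 to 12 per EB library, and did not pass the filter in EBs. Its ratio to Rpl3 differed by -3.14 ± 0.57 between stages in WT, with no overlap, and since it passed the filter only through ESCs this is given as a description. Beyond the symbol rule, Rpl36al had 0.0853 to 0.433 counts per 100 Rpl36a counts per library, so its ratio rests on few counts. That ratio was higher in EBs by 1.21 ± 0.45 in WT with no overlap and by 0.36 ± 0.44 in KD with overlap. The ratio of Rps27rt to Rps27, also beyond the rule, was higher in EBs by 0.59 ± 0.54 in WT with overlap and by 1.28 ± 0.35 in KD without. In the same comparison in WT without ESC WT replicate 2, the differences were 0.54 for Rpl22l1, 0.19 for Rps27l (0.36 ± 0.20 with it), -0.21 for Rpl7l1, -3.04 for Rpl3l, 0.88 for Rpl36al and 0.44 for Rps27rt.

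**Figure D5:**
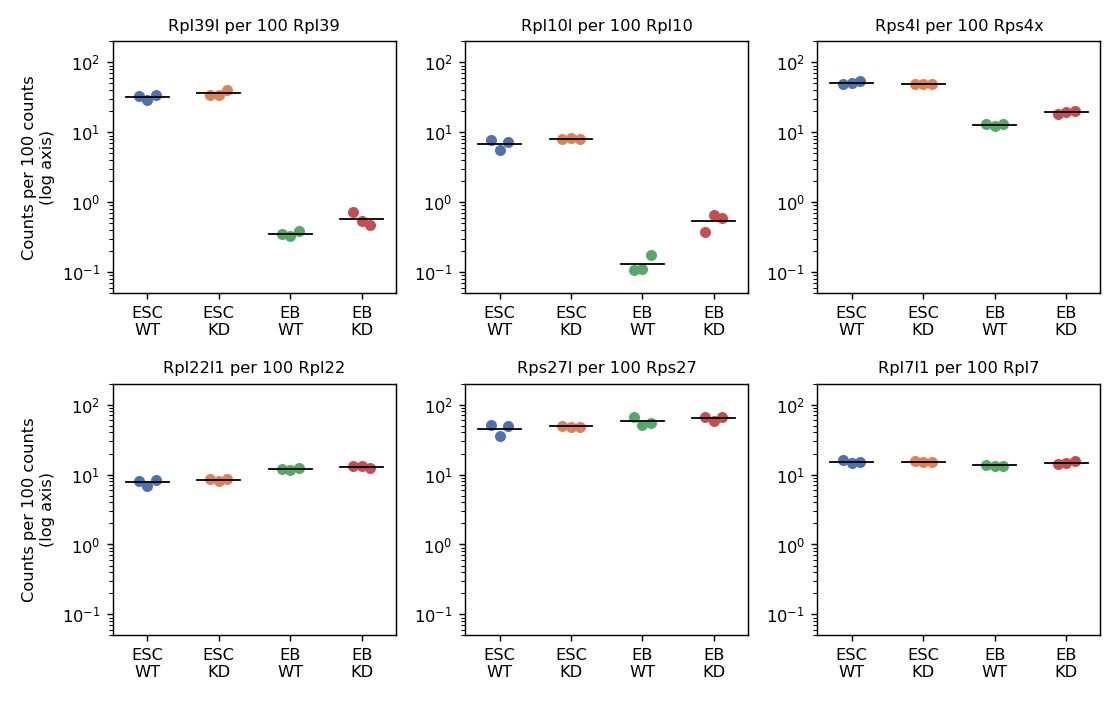
Counts of the paralogue per 100 counts of the related gene in each library, on a log axis, for 6 pairs; the black line is the mean of 3 libraries. The Rpl39l and Rpl10l ratios drop from 32.1 and 6.86 in ESC WT to 0.353 and 0.131 in EB WT, and the Rpl7l1 ratio stays between 13.4 and 15.9 in all libraries.

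The members whose log2 CPM (with 1 added) was most like that of Rpl39l over the 12 libraries were Rpl7l1 (Pearson r 0.999), Rps4l (0.996), Rps3a2 (0.995), Rpl7 (0.994) and Rps13 (0.994). The libraries share the step between stages, which dominates these values, and r is given as a description.

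Whether the KD difference itself differed between the stages was tested as an interaction in the fit of all 12 libraries. Of 89 members, 9 had a lower and 2 a higher log2 fold change in EBs than in ESCs (edgeR with Benjamini-Hochberg adjustment), and 10.2% of all genes were called lower and 12.8% higher. The median was -0.09 for members and 0.03 for all genes. The share called lower was near that of all genes. Without ESC WT replicate 2 the counts were 60 lower and 3 higher, the median was -0.31, and 13.7% of all genes were called lower and 14.2% higher. With library size alone they were 36 lower and 3 higher (median -0.27), against 14.1% of all genes lower and 7.68% higher, where the median of all genes was -0.13.

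Rpl23a, which sits at the exit of the tunnel, was called with the lowest adjusted p of the 11. It stood at 701, 687 and 687 CPM in ESC WT, at 680, 731 and 696 CPM in ESC KD, at 346, 326 and 344 CPM in EB WT and at 221, 225 and 221 CPM in EB KD. Its ESC groups overlapped and its EB groups did not, and the difference of the KD effect was -0.63 ± 0.07 (adjusted p 1.09e-05). ESC WT replicate 2 was not raised for this gene. Rps6 stood at 3171, 3484 and 2996 CPM in ESC WT, at 2942, 2934 and 2936 CPM in ESC KD, at 1342, 1305 and 1336 CPM in EB WT and at 966, 985 and 996 CPM in EB KD. Its groups did not overlap at either stage, and the difference was -0.30 ± 0.08 (adjusted p 0.0114).

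Rpl10l and Rps4l were the members with a higher KD effect in EBs, by 1.77 ± 0.27 (adjusted p 0.00049) and 0.59 ± 0.10 (adjusted p 0.000766). Rpl39, with -0.50 ± 0.17, was not called (adjusted p 0.0556), and Rpl39l had 0.01 ± 0.21.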

How the data were processed

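The values analysed were raw counts per gene, which the authors deposited separately for ESCs and EBs. The submitters' processing notes name HISAT2 (2.1.0), the build mm10, featureCounts (2.0.3) and DESeq2 (1.18.1). The deposited counts, per the file headers, used Ensembl release 90 and paired reads with both ends mapped, without chimeric pairs. No option for strand or for counting pairs as 1 fragment was named, so overlapping or antisense genes cannot be told apart and both mates of a pair could be counted. mRNA was selected with poly-T beads, per the labels' protocols, which favours polyadenylated RNA. Of 52636 identifiers 52403 were matched to symbols and 233 were not.

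Counts were tested with edgeR version 4.0.16 in R version 4.3.3 (TMM factors, filterByExpr with a minimum count of 10 and total of 15, robust quasi-likelihood test), with Benjamini-Hochberg adjusted p under 0.05. KD was tested against WT within each stage, and stages and their interaction in a fit of all 12 libraries. CPM and RPKM values used the TMM factors of all 12. List medians and counts are given with those of all genes in the same comparison in place of a test. Paralogue log2 ratios (0.5 added to each count) used exact 2-sided permutation tests. The edgeR script was checked on simulated data. Alternatives were DESeq2 version 1.42.0, library size alone, TMM without the members, no low-count filter, all 12 libraries in 1 fit, a replicate block, and leaving out each library.

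Members and gene lists were chosen with earlier results of these data known. The genes named were both genes of each paralogue pair, members of role lists, the 5 lowest and 5 highest members per comparison, members called against the majority, Rpsa, Rps6, Rpl38 and Rps4x, and the 5 members most like Rpl39l. Rps12l1 had no counts and was not tested. Other genes of the pathway lists, members at either end of the RPKM order, Rps15, Rpl41, and Rps2 and Rps3a1 in the interaction were named as examples after their values were seen.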

Additional observations from a re-analysis of the deposited data

Results flagged for a closer look

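The KD difference differed between EBs and ESCs for 11 members in the test of the interaction (edgeR, Benjamini-Hochberg adjusted), given here as log2 fold change in EBs minus that in ESCs. It was higher in EBs for Rpl10l (1.77) and Rps4l (0.59). It was lower in EBs for Rpl23a (-0.63), Rpl13a (-0.62), Rpl7a (-0.51), Rpl4 (-0.34), Rps3a1 (-0.33), Rps6 (-0.30), Rpl22l1 (-0.29), Rps2 (-0.28) and Rpl15 (-0.24). These were calls among 89 members tested, while 12.8% of all genes were called higher and 10.2% lower. Without ESC WT replicate 2, 3 members were called higher and 60 lower, against 14.2% and 13.7% of all genes.

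The calls of Rpl13a, Rpl7a, Rpl22l1 and Rps2 were lost in some settings. With DESeq2, Rpl22l1 (adjusted p 0.090) and Rps2 (0.054) were not called, and with no filter on low counts Rpl13a (0.068), Rpl7a (0.118) and Rpl22l1 (0.058) were not. Rpl13a was not called without EB KD replicate 1 (-0.56, adjusted p 0.053). Rpl7a was not called without ESC WT replicate 2 (adjusted p 0.116), ESC KD replicate 2 (0.052), EB WT replicate 3 (0.064), EB KD replicate 2 (0.058) or EB KD replicate 3 (0.065). Rpl22l1 was not called without ESC KD replicate 1 (0.059) or without any of the 6 EB libraries (adjusted p 0.056 to 0.113). Rps2 was not called without ESC KD replicates 1 or 2 (0.060 for each), any EB WT library (0.071 to 0.092), or EB KD replicates 1 or 2 (0.107 and 0.076).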

How the results depend on the processing

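Counts of members higher in ESC KD, and higher or lower in EB KD and between stages, were within 1.5 times in every setting run. The ESC KD median, -0.30 with all libraries, was -0.17 with library size alone and from -0.40 to -0.12 when each library was left out, the last without ESC WT replicate 2. These moves were within the SD of library medians (0.213), which that library raises. The count of members lower in ESC KD, 0 with all libraries, was 9 with DESeq2, 32 with no filter on low counts, 12 in the fit of all 12 libraries, 0 to 41 when each library was left out, and 41 without ESC WT replicate 2 and with TMM factors from other genes (a setting chosen after seeing the data). Of all genes, 4.35%, 4.14%, 5.43%, 0.0359% to 5.6% and 5.69% were called lower in these settings, in the same order. The EB KD median was -0.38 in the fit of all 12 libraries. With library size alone the stage medians were -1.49 in WT and -1.78 in KD. The interaction then gave 36 lower members, against 14.1% of all genes, with a median of -0.27. Leaving out each library gave a stage median in KD of -2.25 to -2.13 and an interaction median of -0.31 to -0.036. In the interaction 2 to 4 members were then higher and 6 to 60 lower, against 9.31% to 14.2% and 7.61% to 13.7% of all genes. The count of 60 was that without ESC WT replicate 2, and the other fits gave 6 to 10 lower members. Without the 100 other genes with the highest counts in the denominator (chosen after seeing the data), the share differed by -2.02 percentage points between EB KD and EB WT, and between stages by -15.5 in WT and -14.4 in KD. As a difference of medians over members instead of sums, the log2 large to small ratio differed by 0.043 in ESC KD, -0.023 in EB KD and -0.12 between stages in KD. The causes were not tested.

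Some genes that were not called changed sign. In ESC KD, Rpl39l was at 0.044 with library size alone, at 0.030 without ESC WT replicate 2 with TMM factors from other genes, and from -0.15 to 0.031 when each library was left out, the last without ESC WT replicate 2. Rpl7 was at 0.077, at 0.023 and from -0.082 to 0.025 in the same settings, and Rpl7l1 at 0.068 with library size alone. In EB KD, Rpl17 ranged from -0.13 (without EB WT replicate 1) to 0.35 and was -0.12 without EB KD replicate 1, and Rpl29 ranged from -0.040 (without EB KD replicate 2) to 0.24.

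The replicate numbers were shared between groups, but same-numbered libraries did not deviate together (r from -0.0264 to 0.0372), so the numbers do not pair the samples. With a replicate block the counts of lower and higher members were 0 and 0 in ESC KD (median -0.28) and 76 and 3 in EB KD (-0.44). Between stages they were 88 and 0 (-2.03) in WT and 89 and 0 (-2.15) in KD. In the interaction they were 8 and 3 (-0.10), where Rpl22l1 and Rps2 were not called (edgeR adjusted p 0.060 and 0.055). Of all genes, 1.21% were called lower and 0.442% higher in ESC KD, and 27.6% and 28% in EB KD. Between stages these shares were 36.5% and 42.1% in WT and 36.8% and 41.8% in KD. In the interaction they were 9.49% and 11.7%, and the member counts there were near them. Depth limits Rpl24, Rpl32l and Rpl3l, which had at most 112 counts per library, and the EB values of Rpl39l and Rpl10l. It also limits the ratio of Rpl36al to Rpl36a.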
